A study of Rattus norvegicus with 18 samples.

Results

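Voltage-gated sodium channel subunit genes were followed by RNA sequencing of the left hippocampus in 2 rat models of temporal lobe epilepsy, both in adult male Sprague-Dawley animals. The 8 genes chosen by name were the pore-forming subunits Scn1a, Scn2a, Scn3a and Scn8a, the atypical channel Scn7a, and the auxiliary subunits Scn2b, Scn3b and Scn4b. All 8 were among the 17455 genes counted, and all 8 were among the 13338 that passed the filter on low counts. RNA was sequenced in 18 libraries: 3 from rats of the kainic acid (KA) model labelled 3 Class V, 7 from KA sham rats, 4 from rats of the kindling (KI) model labelled 3 Class V, and 4 from KI sham rats. KA rats had implanted electrodes and status epilepticus brought on by stepwise systemic injections of kainic acid. KI rats were stimulated electrically, 2 times a day, through electrodes in the hippocampus until they were fully kindled. All hippocampi were taken whole a day after the last seizure. Each model had its own shams, and the sources used here do not define the label 3 Class V further or say what the KA shams received.

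Voltage-gated sodium channels open on depolarization and carry the rising phase of the action potential. A large alpha subunit forms the pore. Scn1a encodes the alpha subunit that dominates in parvalbumin interneurons, and its loss of function causes Dravet syndrome in humans. Scn2a and Scn8a encode the alpha subunits that gather at the axon initial segment of principal neurons, where ankyrin-G and spectrin anchor them. Scn3a encodes an alpha subunit that is prominent in the embryonic brain. Scn7a encodes Nax, which is not gated by voltage in the usual way and is known as a sensor of extracellular sodium in glia of rodent circumventricular organs. Beta subunits are single-pass membrane proteins that shape gating and surface expression. The products of Scn2b and Scn4b bind the alpha subunit through a disulfide bond, and that of Scn3b binds without one.

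Several of these genes lie side by side in the rat annotation. Scn3a is next to Scn2a, Scn1a and Scn7a flank Scn9a, and Scn2b is next to Scn4b. Promoter sequence, defined as 250 bases before to 50 bases after the annotated start, was listed by RefSeq on assembly GRCr8 for 6 of the 8 genes. Scn1a and Scn3b had none listed. Those of 4 genes are shown because they belong to the genes on which the comparisons turn: Scn7a, which rose in KA, Scn8a, which had the largest difference in KI, and the neighbours Scn2b and Scn4b, whose KI differences were unlike. They lie at chr3:71846235-71846534 (minus strand, Scn7a), chr7:133860977-133861276 (plus strand, Scn8a), chr8:54322133-54322432 (plus strand, Scn2b) and chr8:54343623-54343922 (plus strand, Scn4b). Capitals mark CG dinucleotides, the sites at which DNA is methylated.
Scn7a: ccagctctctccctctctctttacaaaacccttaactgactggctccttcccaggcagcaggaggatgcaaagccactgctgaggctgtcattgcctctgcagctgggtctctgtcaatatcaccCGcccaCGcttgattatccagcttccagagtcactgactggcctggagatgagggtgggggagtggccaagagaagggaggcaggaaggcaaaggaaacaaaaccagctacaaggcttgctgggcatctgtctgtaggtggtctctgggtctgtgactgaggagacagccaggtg
Scn8a: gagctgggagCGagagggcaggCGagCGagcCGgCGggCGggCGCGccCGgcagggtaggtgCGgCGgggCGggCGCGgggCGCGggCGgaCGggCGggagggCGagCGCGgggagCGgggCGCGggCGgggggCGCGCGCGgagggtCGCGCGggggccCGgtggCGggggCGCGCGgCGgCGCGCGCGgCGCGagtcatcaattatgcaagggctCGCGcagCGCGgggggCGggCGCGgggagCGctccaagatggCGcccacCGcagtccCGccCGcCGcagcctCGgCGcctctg
Scn2b: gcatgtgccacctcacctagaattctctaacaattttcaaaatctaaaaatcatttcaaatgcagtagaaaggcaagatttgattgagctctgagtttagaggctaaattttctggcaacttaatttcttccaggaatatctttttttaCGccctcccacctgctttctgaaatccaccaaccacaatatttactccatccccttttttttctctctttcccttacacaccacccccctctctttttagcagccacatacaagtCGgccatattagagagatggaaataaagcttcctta
Scn4b: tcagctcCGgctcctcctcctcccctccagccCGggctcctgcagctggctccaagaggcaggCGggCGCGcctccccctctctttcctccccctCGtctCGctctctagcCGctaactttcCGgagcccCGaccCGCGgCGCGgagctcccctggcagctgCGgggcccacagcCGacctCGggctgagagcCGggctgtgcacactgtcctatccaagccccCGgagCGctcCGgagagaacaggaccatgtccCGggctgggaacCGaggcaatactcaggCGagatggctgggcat
The Scn8a window held 60 CG dinucleotides, more than 99.9% of the 33469 rat promoters of the same length, whose median was 7. The Scn4b window held 24. The windows of Scn7a and Scn2b held 2 each, that of Scn2a 4 and that of Scn3a 7. Letters of 5 transcription factor motifs were searched on both strands. The EGR motif GCGTGGGCG was in the Scn7a window, on the opposite strand at position −125 relative to the start, and in 0.544% of all promoters. A loose AP-1 pattern, TGANTCA with any base at N, was in the Scn3a window as TGATTCA and in 7.33% of all promoters. The CRE motif TGACGTCA (1.83% of all promoters), the partial RE1 silencer motif TTCAGCACC (0.356%) and TATAAA (14.2%) were in none of the 6 windows.

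Libraries held 30925368 to 49943021 counts. All 12 reactive astrocyte genes and all 12 interneuron markers examined had counts in every library. There were 3 libraries that carried a large share of counts on 3 ribosomal RNA-like genes, which was 16.3% for KI 3 Class V 1, 16.4% for KI sham 2, 9.66% for KA sham 4 and 0.569% to 2.0% for the other 15. KI sham 1 stood apart in its mixture of sodium channel genes and of some others. KI sham 4 held 1014 CPM (counts scaled by library size) of choroid plexus markers, against 22.2 to 56.5 CPM in the other KI shams. KA sham 3 held 639 CPM of these markers, against 23.7 to 81.3 CPM in the other KA shams. These libraries were kept, and values without them are given for some of the results. The sources used here give neither the strand setting nor the handling of reads that fit more than 1 gene, so reads shared between the similar alpha subunit genes may have been split or dropped. Levels were not scaled for gene length, so each gene is compared with itself across libraries and not with the other genes.

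Scn7a was higher after kainic acid seizures. The KA 3 Class V libraries held 4.40, 8.49 and 18.4 CPM of it, against a lowest value of 0.582, a median of 1.53 and a highest value of 3.55 CPM in the 7 KA shams. The groups did not overlap, and the 3 KA 3 Class V libraries differed among themselves more than the shams did. The fitted log2 fold change was 2.46 ± 0.44 (SE), a 5.52-fold rise (edgeR adjusted p = 0.0237, n = 3 against 7). Across all genes in KA, 0.172% were called higher at an adjusted p under 0.05, and 2.95% had all KA 3 Class V libraries above all KA shams. Without KA 3 Class V 3, the library with the highest level, the log2 change was 1.76 and the gene was no longer called (edgeR adjusted p = 0.367). It was also not called without KA sham 3 (2.38, edgeR adjusted p = 0.0708) or without KA sham 7 (2.42, edgeR adjusted p = 0.0655).

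**Figure D1:**
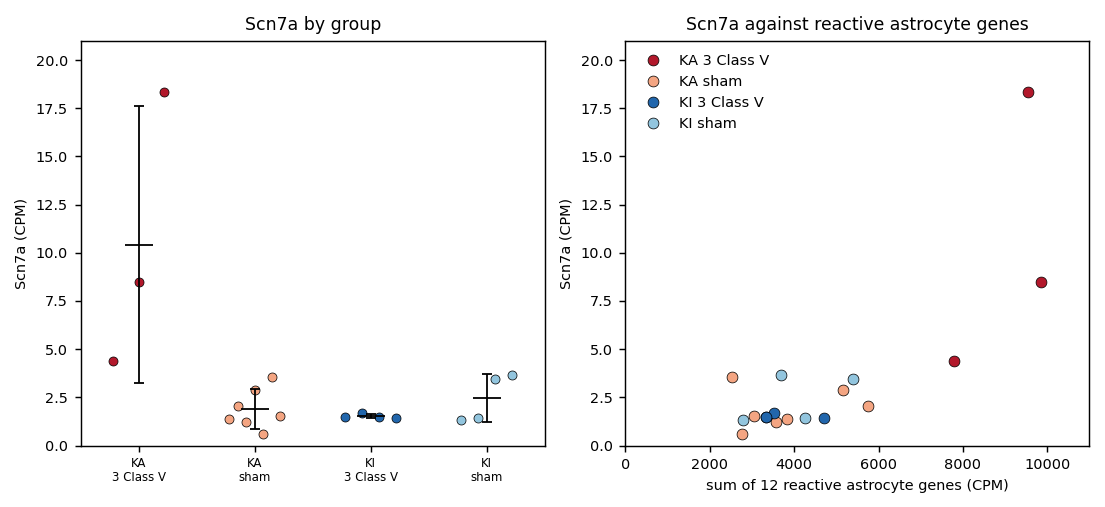
Left, CPM of Scn7a in each library by group, with the mean and SD in black. Right, CPM of Scn7a against the summed CPM of 12 reactive astrocyte genes, 1 point per library. The 3 KA 3 Class V libraries have the highest Scn7a values, from 4.40 to 18.4 CPM, and the highest reactive astrocyte sums, from 7795 to 9858 CPM.

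In kindled rats Scn7a was at 1.48, 1.70, 1.49 and 1.44 CPM in KI 3 Class V, against 1.31, 1.43, 3.44 and 3.65 CPM in KI sham. The groups overlapped, with KI sham 3 and KI sham 4 above every kindled library and KI sham 1 and KI sham 2 below all of them. The log2 fold change was −0.70 ± 0.50 (edgeR adjusted p = 0.311), and it was 0.13 without KI sham 3 and KI sham 4. The KA change exceeded the KI change by 3.16 ± 0.67 on the log2 scale (edgeR adjusted p = 0.0190), a contrast in which 3.15% of all genes were called higher. This difference was not called without KA 3 Class V 3 (2.47, edgeR adjusted p = 0.0820), KI 3 Class V 1 (3.14, edgeR adjusted p = 0.0531) or KI 3 Class V 3 (3.16, edgeR adjusted p = 0.0507). It was also not called without KI sham 3 and KI sham 4 together (2.33, edgeR adjusted p = 0.0656).

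The genes whose log2 levels followed Scn7a most closely over the 18 libraries were C1s, Aspg and Hspb1, with Pearson r of 0.93, 0.93 and 0.90 among 11212 genes compared. C1s encodes a protease of the classical complement pathway, Aspg an asparaginase, and Hspb1 a small heat shock protein made by reactive astrocytes. Aspg and Hspb1 also stand in the list of 12 reactive astrocyte genes. Aspg stood at 8.51, 13.1 and 16.9 CPM in KA 3 Class V, against 2.28 to 4.70 CPM in KA sham. Hspb1 stood at 33.1, 47.1 and 112 CPM in KA 3 Class V, against 10.4 to 22.5 CPM in KA sham. For C1s, Aspg and Hspb1 the lowest of the 3 values was in KA 3 Class V 1 and the highest in KA 3 Class V 3, the same order as for Scn7a. The genes were picked by their correlation with Scn7a over these same libraries, so this shared order is no separate evidence.

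Reactive astrocyte genes were higher along with Scn7a in KA, while other lists of glial markers did not all share this direction. The part of glia in the rise of Scn7a was not tested. The 12 reactive astrocyte genes summed to 7795, 9858 and 9536 CPM in KA 3 Class V 1, 2 and 3, against 2514 to 5739 CPM in KA sham. All 12 were higher in KA 3 Class V by fitted change, 4 of them called, where 0.172% of all genes were called higher in KA. General astrocyte markers summed to 10040 to 10522 CPM in KA 3 Class V, against 7366 to 14630 CPM in KA sham, and 0 of 12 were called by edgeR (2 higher and 0 lower at an unadjusted p under 0.05). The 11 microglia markers all had positive changes in KA with 0 called (5 at an unadjusted p under 0.05). Markers of Schwann cells, which express Scn7a in nerve, summed to 11.05 to 14.1 CPM in KA 3 Class V, against 6.02 to 12.3 CPM in KA sham. Of 5 tested, 1 was called higher, Egr2, which is also an immediate early gene of neurons. It stood at 3.16 to 4.98 CPM in KA 3 Class V, against 0.849 to 2.10 CPM in KA sham (log2 fold change 1.55 ± 0.30, edgeR adjusted p = 0.0357). At an unadjusted p under 0.05, 6 of 6 blood cell genes and 7 of 12 myelin and oligodendrocyte markers were lower in KA, with 0 called by edgeR in both lists, where 3.59% of all genes were lower and 6.34% higher. The 7 ependymal markers summed to 65.3 to 68.2 CPM in KA 3 Class V, against 45.9 to 82.9 CPM in KA sham. In this bulk tissue, a change in the number of cells of a type and a change in RNA per cell cannot be told apart.

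The other 7 genes were not called in KA, and their fitted changes were small. The log2 fold changes ran between −0.29 and −0.06 (Scn4b −0.29 ± 0.28, Scn8a −0.29 ± 0.44, Scn2b −0.17 ± 0.31, Scn3a −0.14 ± 0.33, Scn3b −0.13 ± 0.30, Scn2a −0.10 ± 0.38 and Scn1a −0.06 ± 0.32), with edgeR adjusted p from 0.766 to 0.975. Scn8a, for example, stood at 143, 152 and 108 CPM in KA 3 Class V, against a lowest value of 86.7, a median of 166 and a highest value of 269 CPM in KA sham. Each KA 3 Class V value of these 7 genes except 1 lay within the range of the KA shams. The exception was Scn4b in KA 3 Class V 2, at 19.8 CPM, against 24.3 to 51.3 CPM in KA sham. The 95% intervals were wide. That of Scn8a ran from −1.23 to 0.65 and that of Scn2a from −0.91 to 0.71 on the log2 scale.

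**Figure D2:**
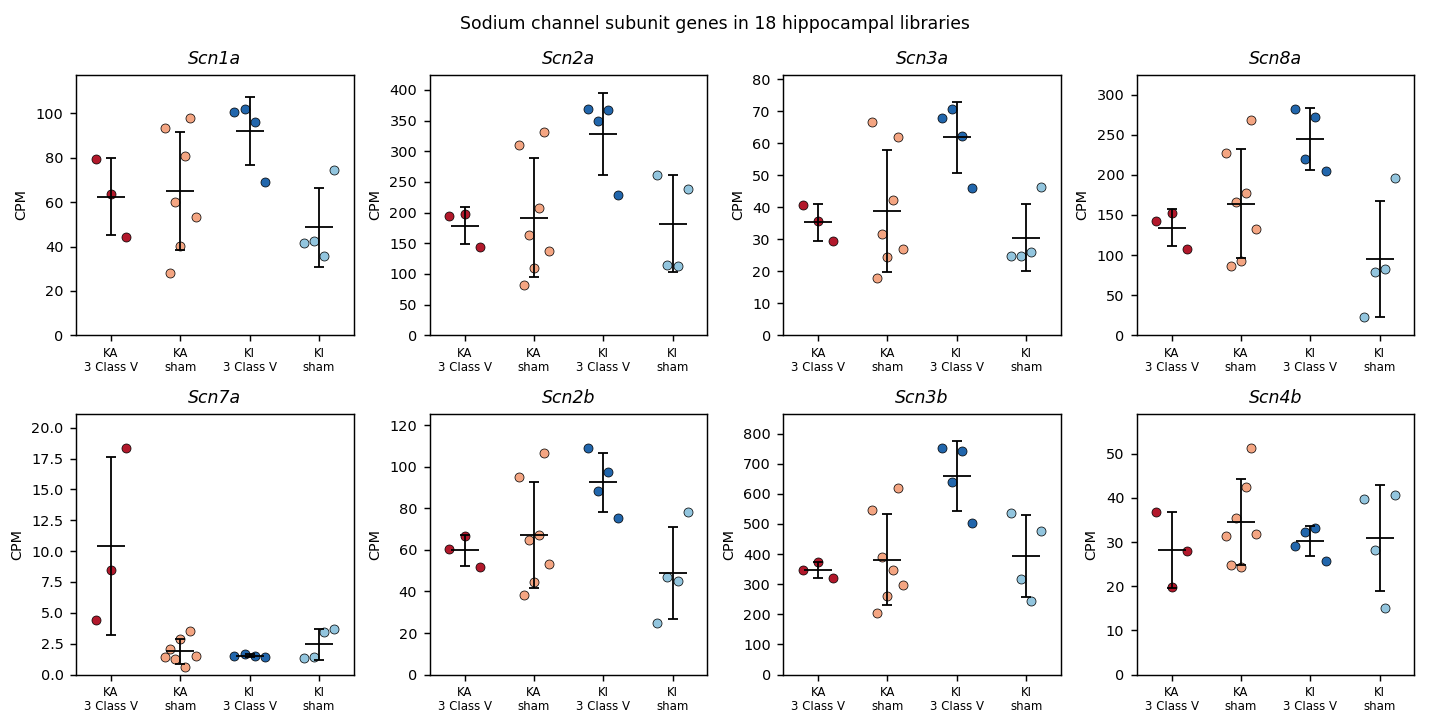
CPM of each of the 8 sodium channel subunit genes in every library, by group, with the mean and SD in black. Scn7a is higher in the KA 3 Class V group, at 4.40 to 18.4 CPM, while the points of the other genes in that group lie within or near the KA shams.

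In kindling, 6 of the 8 genes stood higher in 3 Class V rats without passing the test across all genes. Scn1a, Scn2a, Scn3a, Scn8a, Scn2b and Scn3b had log2 fold changes of 0.75 to 1.36, and Scn7a and Scn4b did not share this direction. EdgeR called 0 of 8 at an adjusted p under 0.05, where 9.99% of all genes were called in either direction and 4.74% were called higher. At an unadjusted p under 0.05, 6 of 8 were higher, where 17.2% of all genes were. Of the 1332 genes that edgeR called in KI, 632 were higher and 700 lower. With upper quartile factors 333 were higher and 978 lower, and the median of all genes was −0.10 in place of −0.04, while the 6 subunit genes kept positive changes of 0.69 to 1.28. DESeq2 called 4 of the 8 higher, where it called 11.7% of all genes higher. Limma-voom with quality weights called 6 higher, where it called 27.1% of all genes higher.

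Scn8a had the largest of these differences. It stood at 283, 219, 272 and 204 CPM in KI 3 Class V, against 22.96, 78.4, 82.9 and 196 CPM in KI sham. The groups did not overlap, which held with kindled libraries above shams for 12.1% of all genes, and KI sham 4 came close to the lowest kindled library. The log2 fold change was 1.36 ± 0.45, or 2.57-fold (edgeR adjusted p = 0.0583, 95% interval 0.39 to 2.33). It was 1.04 without KI sham 1 (edgeR adjusted p = 0.0900) and 1.96 without KI sham 4 (edgeR adjusted p = 0.00909).

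Scn3a stood at 67.8, 70.8, 62.3 and 46.1 CPM in KI 3 Class V, against 24.8, 24.8, 25.9 and 46.2 CPM in KI sham. Only the kindled library 4 and KI sham 4 met, at nearly the same level, and the other 3 kindled libraries lay above every sham. The log2 fold change was 1.02 ± 0.34 (edgeR adjusted p = 0.0601). Scn1a stood at 101, 102, 96.2 and 69.1 CPM in KI 3 Class V, against 41.5, 42.3, 35.9 and 74.6 CPM in KI sham. The same pair of libraries overlapped here, and the log2 fold change was 0.92 ± 0.33 (edgeR adjusted p = 0.0708). Scn2a, the other alpha subunit of principal neurons, stood at 370, 349, 366 and 228 CPM in KI 3 Class V, against 261, 115, 113 and 239 CPM in KI sham. Here both KI sham 1 and KI sham 4 exceeded the lowest kindled library. The log2 fold change of Scn2a was 0.85 ± 0.39 (edgeR adjusted p = 0.127).

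Among the beta subunits, Scn2b and Scn3b were higher by fitted change and Scn4b was not. Scn2b stood at 109, 88.2, 97.5 and 75.5 CPM in KI 3 Class V, against 24.8, 47.1, 44.9 and 78.5 CPM in KI sham (log2 fold change 0.92 ± 0.32, edgeR adjusted p = 0.0623). Scn3b stood at 753, 639, 741 and 504 CPM in KI 3 Class V, against 535, 316, 244 and 477 CPM in KI sham (log2 fold change 0.75 ± 0.30, edgeR adjusted p = 0.0952). In both genes 3 kindled libraries lay above every sham, and KI 3 Class V 4 fell within the sham range. Scn4b stood at 29.2, 32.3, 33.3 and 25.8 CPM in KI 3 Class V, against 39.7, 28.2, 15.1 and 40.7 CPM in KI sham. Its kindled libraries all lay inside the range of the shams, with a log2 fold change of −0.04 ± 0.28 (edgeR adjusted p = 0.932, 95% interval −0.64 to 0.57).

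**Figure D3:**
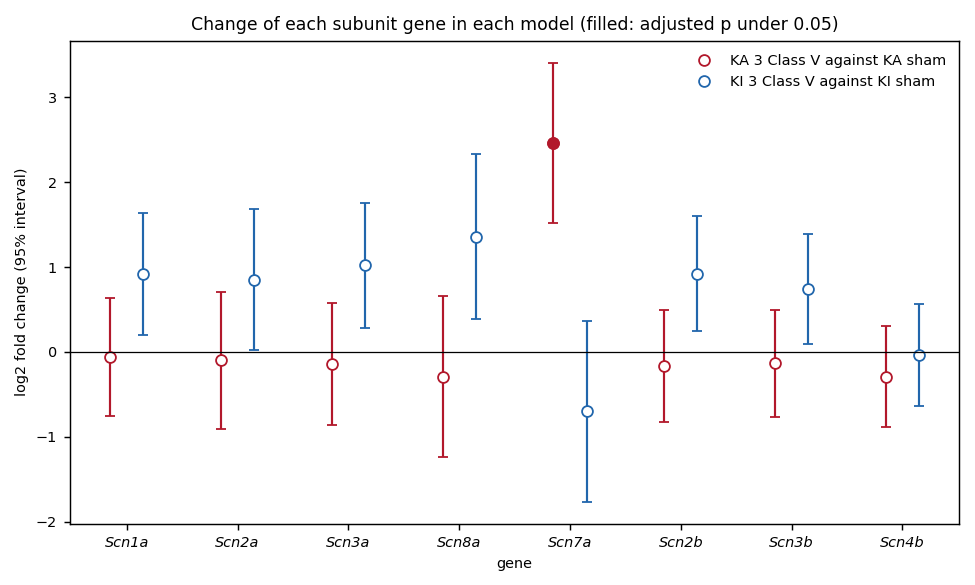
Log2 fold change of each gene with its 95% interval, KA 3 Class V against KA sham in red and KI 3 Class V against KI sham in blue. Only Scn7a in KA, at 2.46, is filled, meaning an adjusted p under 0.05, and 6 genes have KI intervals above 0.

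The KI call depended on which libraries entered the fit. Leaving out KI sham 4 gave calls for Scn1a, Scn3a, Scn8a and Scn2b, with log2 changes of 1.18, 1.26, 1.96 and 1.22, where 14.6% of all genes were called higher. The same 4 genes were called without KA sham 2, which is in neither KI group, where 9% of all genes were called higher. Scn3a, Scn8a and Scn2b were called without KA sham 6 (6.25% of all genes), and Scn3a was called without KA sham 1 (6.31% of all genes). Without KI sham 1 none of the 8 was called, and the changes of the 6 genes ran from 0.70 (Scn2b) to 1.08 (Scn2a). None was called without the 3 libraries rich in ribosomal RNA-like counts. In that fit 3 of the 8 were higher at an unadjusted edgeR p under 0.05, where 1274 of 13319 genes were. Scn8a was then at 1.19 (edgeR adjusted p = 0.225). It was at 1.28 without KI 3 Class V 1 (edgeR adjusted p = 0.136) and 1.30 without KI 3 Class V 3 (edgeR adjusted p = 0.125).

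The change of 3 of these genes in KA was lower than in KI by the contrast of changes. Scn8a differed by −1.65 ± 0.64, Scn3a by −1.16 ± 0.48 and Scn2b by −1.09 ± 0.45 on the log2 scale, each at an unadjusted edgeR p under 0.05, where 9.17% of all genes were lower. None of the 3 passed adjustment over all genes (edgeR adjusted p = 0.154, 0.187 and 0.179). Limma-voom with quality weights called all 3, together with Scn1a, Scn2a and Scn3b, where it called 19% of all genes lower. Scn8a was called by edgeR without KI sham 4 (−2.25, edgeR adjusted p = 0.0330), where 1.88% of all genes were called lower. Between the shams of the models 0 of 8 genes were called in KA sham against KI sham (0 of 8 at an unadjusted p under 0.05), in a contrast where 0.0075% of all genes were called. Limma-voom with quality weights called Scn8a higher there, with 2.35% of all genes, and DESeq2 called none of the 8. The largest of these sham differences was 0.79 ± 0.41 for Scn8a (edgeR adjusted p = 0.567).

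The levels of 6 genes varied together over libraries, whatever the group. Over the 18 libraries, Scn1a, Scn2a, Scn3a, Scn8a, Scn2b and Scn3b had Pearson r of 0.50 to 0.97 in their 15 pairs, and 0.38 to 0.96 after group means were removed. The highest value was between Scn2a and Scn3b. Scn7a had r of −0.24 to −0.06 with these 6 genes, and −0.21 to 0.18 after group means were removed. Scn4b had r of 0.22 to 0.52 with them, and 0.22 to 0.71 after group means were removed, so it partly shared their variation. The libraries differ in depth and in their share of ribosomal RNA-like counts, and these values describe how the levels varied together.

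The same 6 genes followed the level of ribosomal protein genes inversely. A score was taken as the mean log2 CPM of 88 genes with Rpl or Rps symbols, centred per gene. It was −0.49, −0.39, −0.45 and −0.19 in KI 3 Class V, against 0.69, 0.24, 0.42 and −0.34 in KI sham, so KI sham 4 was the sham nearest to the kindled rats. It was −0.06, −0.12 and 0.09 in KA 3 Class V, against −0.48 to 0.97 in KA sham. Its Pearson r over the 18 libraries was −0.93 with Scn1a, −0.93 with Scn3a and −0.92 with Scn2b (permutation p adjusted over the 8 genes = 5.33e-05 for each). It was −0.84 with Scn8a, −0.80 with Scn2a and −0.76 with Scn3b (adjusted permutation p = 0.00012, 0.000224 and 0.000427), and Spearman rho was −0.94, −0.83 and −0.83. The Spearman rho of Scn1a, Scn3a and Scn2b was −0.92, −0.94 and −0.97 (adjusted permutation p of rho for the 6 genes from 4e-05 to 0.000107). Without KI sham 1 and KA sham 2, the 2 libraries farthest from the median score, r of these 6 genes ran from −0.94 to −0.91. Within the 7 KA shams alone it ran from −0.96 to −0.94. Scn7a did not follow the score (r = 0.05, rho = 0.09, adjusted permutation p = 0.814), and for Scn4b r was −0.39 and rho −0.41 (adjusted permutation p = 0.136). Within the 7 KA shams alone r was 0.21 for Scn7a and −0.79 for Scn4b. The permutations shuffled all 18 libraries across the groups. After group means were removed, r of the 6 genes with the score ran from −0.92 to −0.73. How many other genes follow the score as closely was not counted, so the pattern is not shown to be particular to sodium channel genes.

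With the score as a covariate, the KI changes of the 6 genes were smaller. They were 0.71 for Scn8a (edgeR adjusted p = 0.163), 0.33 for Scn2b, 0.31 for Scn3a, 0.24 for Scn1a, 0.22 for Scn3b and 0.13 for Scn2a. Over all genes, 105 were called in KI with the covariate, against 1332 without it. The score is itself measured in the same libraries and differs between the KI groups, so a change in the channel genes and a shift of whole libraries cannot be told apart. The KA change of Scn7a with the covariate was 2.46 (edgeR adjusted p = 0.0155).

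**Figure D4:**
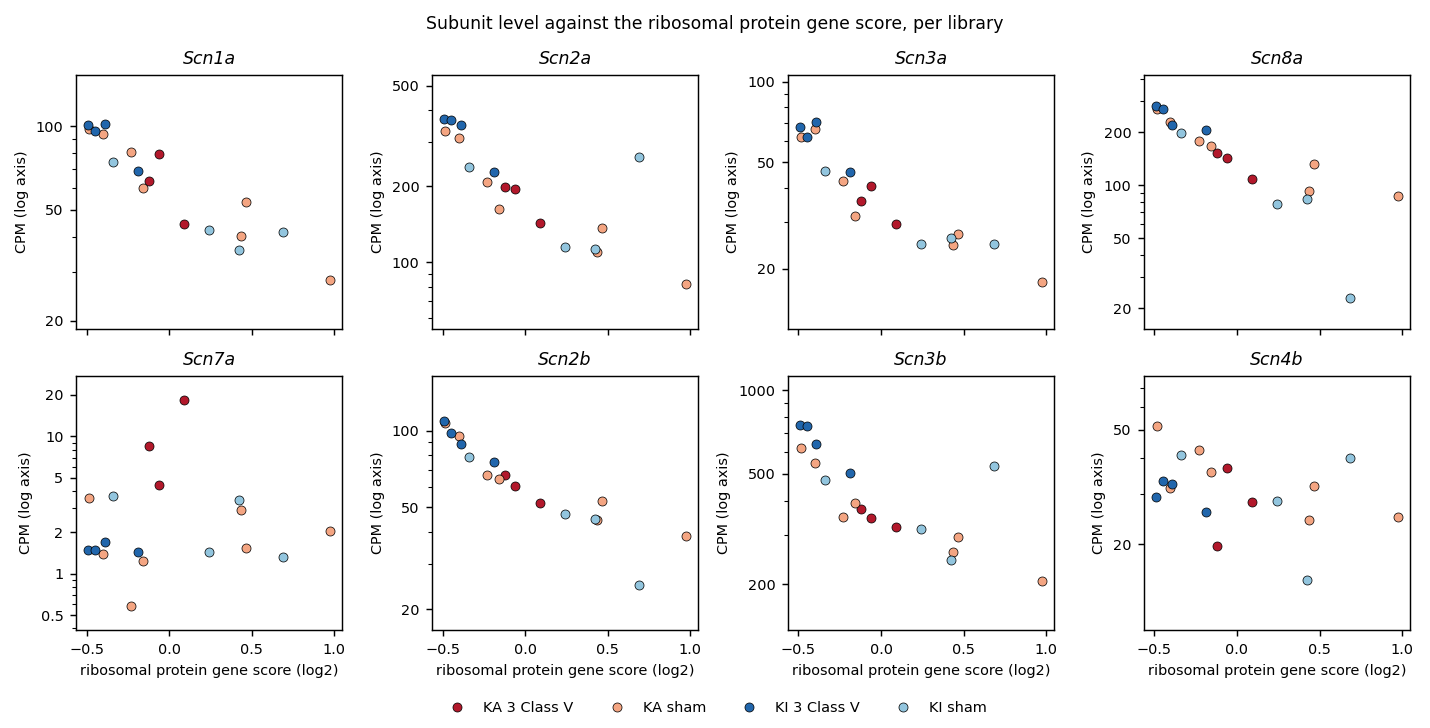
CPM on a log axis against the ribosomal protein gene score, 1 point per library, for each of the 8 genes. Scn1a, Scn3a and Scn2b fall along a band with r near −0.93, KI sham 1 sits off that band for Scn2a, Scn3b and Scn8a, and Scn7a shows no such band.

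Genes nearest in pattern to the 6 included known genes of neurons. For Scn2b they were Syt1, the calcium sensor of synaptic vesicle release, Scamp5 and Cds2 (r = 0.99, 0.99 and 0.99). Syt1 stood at 667, 552, 643 and 420 CPM in KI 3 Class V, against 117, 242, 231 and 395 CPM in KI sham (log2 fold change 1.21, edgeR adjusted p = 0.0450). For Scn8a they were the netrin receptor Dcc, the bicarbonate transporter Slc4a8 and Slmap (r = 0.99 for each). Slc4a8 is also the neighbour of Scn8a on its chromosome, and it stood at 34.1, 25.7, 33.4 and 25.04 CPM in KI 3 Class V, against 3.22, 7.33, 10.5 and 21.1 CPM in KI sham. Its KI log2 fold change was 1.48 (edgeR adjusted p = 0.0426). The nearest to Scn2a were Map1b, Kif3a and Epha4, and the nearest to Scn3b were Atp2b1, Slitrk5 and Lrrc4 (r = 0.98 to 0.99). The cell adhesion gene L1cam came first for both Scn1a and Scn3a (r = 0.98 and 0.98), followed by Ptprn2 and Pcdh9 for Scn1a and by Abcc5 and Kif21a for Scn3a. Of the genes nearest to the 6, Syt1, Scamp5, Cds2, Slc4a8 and Kif21a were called higher in KI by edgeR. The others were not, among them Dcc, L1cam and Map1b (edgeR adjusted p = 0.0648, 0.0631 and 0.134). All were picked by their correlation with the 6 genes over these same libraries, so their KI changes are no separate evidence. Scn4b was followed less closely by any gene, with Tyro3, Spry4 and Cdh13 at r = 0.83.

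Ratios between subunits within a library were compared to see whether the mixture of channels changed. Of 5 log2 ratios in each model, 0 of 10 differed between groups by an exact two-sided permutation test after adjustment (lowest adjusted p = 0.571). The smallest p that the designs allow is 0.0167 in KA and 0.0286 in KI. With the adjustment over 10 ratios, a single ratio could not pass even with its groups fully apart. The adjusted test therefore cannot decide whether the mixture of channels changed. The ratio of Scn8a to Scn2a was −0.44, −0.38 and −0.41 in KA 3 Class V, against −0.45 to 0.08 in KA sham, a difference of −0.24 (exact permutation p = 0.0667). In KI 3 Class V it was −0.39, −0.67, −0.43 and −0.16, against −3.50, −0.55, −0.44 and −0.28 in KI sham. KI sham 1 lay far below every other library, and without it the KI difference was 0.01 in place of 0.78. The ratio of Scn4b to its neighbour Scn2b was −1.90, −1.45, −1.55 and −1.55 in KI 3 Class V, against 0.68, −0.74, −1.57 and −0.95 in KI sham. Of the 4 shams, 3 lay above all kindled libraries, with a difference of −0.97 (exact permutation p = 0.114), and −0.53 without KI sham 1. In KA the ratio of Scn4b to Scn2b differed by −0.20 (exact permutation p = 0.433).

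**Figure D5:**
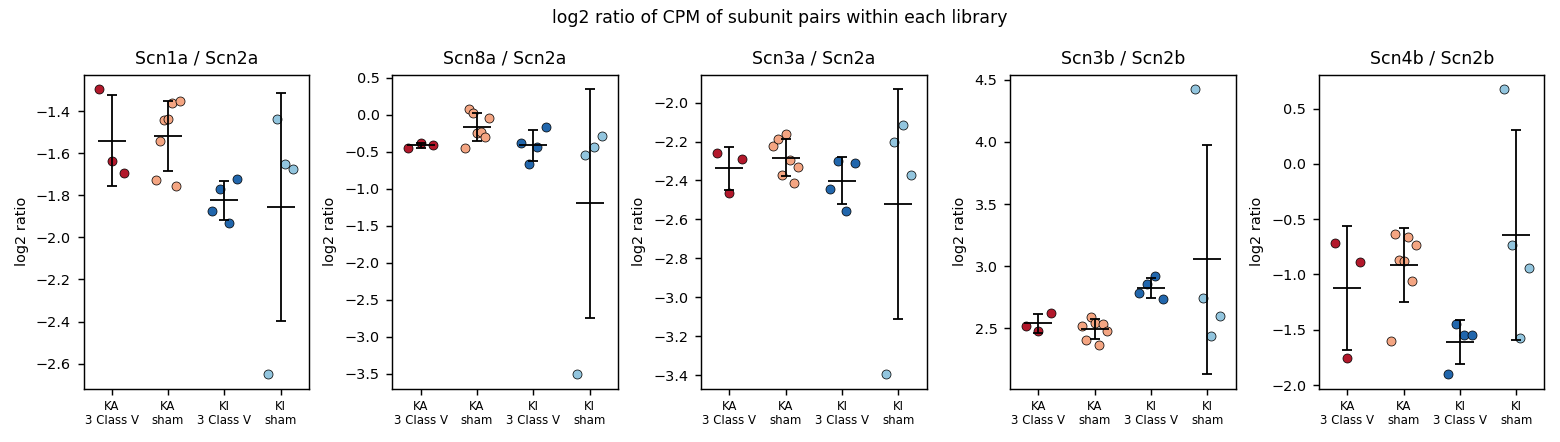
Log2 ratio of CPM for 5 pairs of subunit genes in each library, by group, with the mean and SD in black. KI sham 1 lies apart in every pair, for example at −3.50 for Scn8a to Scn2a, and the groups overlap in each pair.

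KI sham 1 held an unusual mixture of these genes and of some others. Scn8a and Scn2b were at their lowest of all 18 libraries there, at 22.96 and 24.8 CPM. Scn2a (261 CPM) and Scn3b (535 CPM) were at their highest among the KI shams. Dcc (2.63 CPM), Slc4a8 (3.22 CPM) and Syt1 (117 CPM), picked above by correlation, were also at their lowest of all 18 libraries in KI sham 1. Its blood cell genes summed to 4031 CPM, against 649.3 to 1280.5 CPM in the other KI shams. KA sham 2 held more of these, at 7876 CPM.

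Among sodium channel genes outside the 8, Scn4a was called in KI. This alpha subunit gene, best known from skeletal muscle, stood at 8.57, 7.79, 8.73 and 6.61 CPM in KI 3 Class V, against 1.69, 2.65, 2.58 and 3.93 CPM in KI sham. The groups did not overlap (log2 fold change 1.54 ± 0.44, edgeR adjusted p = 0.0409). It was called in 19 of 29 alternative settings, with a log2 change of 0.99 or above and adjusted p up to 0.184. The settings that ended the call included some other than leaving out 1 library. On leaving out 1 library, the call ended without any one of KI 3 Class V 1 to 4 or KI sham 1, 2 or 3. The log2 change then stayed at 1.37 or above (edgeR adjusted p up to 0.111). Scn9a, which lies between Scn1a and Scn7a and is known from pain-sensing neurons, had a KI log2 fold change of 0.84 ± 0.38 (edgeR adjusted p = 0.128). In KA the log2 changes were 0.08 ± 0.42 for Scn4a and 0.03 ± 0.37 for Scn9a, and neither was called (edgeR adjusted p = 0.970 and 0.988). Scn10a and Scn11a of sensory neurons were below the filter, at no more than 0.393 CPM in any library.

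Genes for proteins of the axon initial segment or for proteins that bind or remove sodium channels were examined as a list of 20, with 19 tested. The list also held the general neuronal cytoskeleton genes Tubb3 and Map2, whose KI log2 changes were 0.15 ± 0.18 and 1.02 ± 0.39 (edgeR adjusted p = 0.554 and 0.0806). In KI 6 were called higher, where 4.74% of all genes were, and 0 lower. Of the 19, 17 had positive changes, and the median of the list was 0.56, against −0.04 for all genes. The 6 were Ank3, encoding ankyrin-G (0.58 ± 0.15, edgeR adjusted p = 0.0325), the spectrin gene Sptan1 (0.67 ± 0.20, edgeR adjusted p = 0.0443), the adhesion gene Nrcam (0.85 ± 0.23, edgeR adjusted p = 0.0375), Fgf11 of the channel-binding FGF family (0.92 ± 0.27, edgeR adjusted p = 0.0422), and the ubiquitin ligase genes Nedd4l (0.80 ± 0.20, edgeR adjusted p = 0.0327) and Nedd4 (0.56 ± 0.16, edgeR adjusted p = 0.0394). Ank3, for example, stood at 376 to 412 CPM in KI 3 Class V, against 205 to 316 CPM in KI sham. In KA, 0 of the 19 were called by edgeR (0 higher and 1 lower at an unadjusted p under 0.05), with a median of −0.04, against −0.01 for all genes. The KI count was 0 without any one of KI 3 Class V 1, 2 or 3 or KI sham 2 or 3. It was 2 without KI sham 1, 11 without KI sham 4 and 0 when the ribosomal protein score was a covariate. It was also 0 without the 3 libraries rich in ribosomal RNA-like counts and 0 with the replicate number as a block.

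The sodium leak channel, a related pore that is open at rest, was represented by Nalcn and its partner Unc79. Unc79 was called higher in KI (0.73 ± 0.21, edgeR adjusted p = 0.0416) and Nalcn was not (0.89 ± 0.30, edgeR adjusted p = 0.0581). The Unc79 call ended without any one of the same 7 libraries whose removal ended that of Scn4a (0.65 or above, edgeR adjusted p up to 0.115). It was called in 19 of 29 alternative settings. The call also ended without the 3 libraries rich in ribosomal RNA-like counts, when the ribosomal protein score was added to the fit and with the replicate number as a block. Over all settings the log2 change was 0.30 or above (adjusted p up to 0.188). In KA the changes were −0.02 ± 0.20 for Unc79 and 0.06 ± 0.29 for Nalcn.

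Cell type markers in KI are given beside these counts, and their part in them was not tested. Of 12 interneuron markers, 7 were higher at an unadjusted p under 0.05, where 17.2% of all genes were. Only 1 of the 12 was called higher, where 4.74% of all genes were. The 12 markers summed to 1664, 1494, 1668 and 1504 CPM in KI 3 Class V, against 1535, 1056, 1150 and 856 CPM in KI sham. The groups overlapped, with KI sham 1 above KI 3 Class V 2 and 4, and 9 of the 12 markers had positive changes (median log2 change 0.55). Of 11 pyramidal cell markers tested, 2 were called higher, with a median change of 0.26. Of all genes, 5.25% were called lower in KI by edgeR, and 18.2% were lower at an unadjusted p under 0.05. Of 11 microglia markers 7 were called lower, and of 12 myelin and oligodendrocyte markers 3 were called lower. Of 7 ependymal markers 3 were called lower, with 6 lower at an unadjusted p under 0.05. None of the 8 choroid plexus markers was called by edgeR, with 7 lower at an unadjusted p under 0.05 and a median of −2.0. Of 9 dentate granule cell markers tested 2 were called lower, with 3 higher at an unadjusted p under 0.05, and of 8 meninges and fibroblast markers 1 was called lower.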

How the data were processed

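Counts of polyadenylated RNA reads per gene symbol, raw and with no normalization, were deposited as 1 table of 18 libraries, and each column was matched to a sample by its library name in the labels. The submitters' processing notes name HISAT2, featureCounts, Trimmomatic, FastQC and DESeq2 with build rn6 and give no versions. Libraries were NEBNext Ultra II, per the labels' protocols. Groups came from sample titles, and no label says that each library came from its own animal, so p-values may measure a spread that is partly technical. Replicates of a group all differed beyond counting error (19.8 to 582.8 chi-square units per degree of freedom).

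All 13338 genes passing filterByExpr were tested in 1 fit of the 18 libraries by edgeR 4.0.16 in R 4.3.3 (TMM factors, group means, robust quasi-likelihood F test, two-sided, Benjamini-Hochberg adjustment over all genes, threshold 0.05). SE is the absolute log2 fold change over the square root of F. CPM uses TMM-scaled library sizes, and log2 CPM a prior count of 2. Ratios were tested by exact permutation, and correlations with 100000 random permutations, for which 2e-05 is the smallest two-sided p. The procedure was tested on simulated counts drawn gene by gene. These held no shifts of whole libraries, so that test does not cover such shifts. Alternatives were DESeq2 1.42.0, limma-voom (limma 3.58.1), other factors and filters, each model alone, a replicate block, a ribosomal protein covariate and leaving out libraries.

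The 8 genes, the lists and the tests were chosen with earlier results of these data known. The text names the 8 genes, other genes of the family, called genes of the partner and leak channel lists, the 3 genes most correlated with each of the 8 (mean log2 CPM of at least 1). Syt1, Slc4a8 and Aspg among the correlated genes, Egr2, Tubb3 and Map2 were described after their values were seen. Sequences are from RefSeq, assembly GRCr8, and no coordinates were converted. Some genes of the family and of the marker lists are not reported here.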

Additional observations from a re-analysis of the deposited data

Results flagged for a closer look

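Within groups of 4 to 7 libraries, 39 sets of values were examined for a library far from the others by Dixon's gap ratio, and 5 were found, where chance gives about 1 in 20. Scn1a at 74.6 CPM and Scn3a at 46.2 CPM were both high in KI sham 4. Scn2a at 228 CPM was low in KI 3 Class V 4. In KI sham 1 the log2 ratio of Scn8a to Scn2a, −3.50, was low, and that of Scn3b to Scn2b, 4.43, was high. Scn7a also changed differently in the models, with the KA change above the KI change by 3.16 on the log2 scale (edgeR adjusted p = 0.0190). Levels of Scn7a were higher in 3 of 3 KA 3 Class V libraries than in any KA sham.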

How the results depend on the processing

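The count of subunit genes called in KA, 1, was 0 with each model fitted alone, and that in KI, 0, was 1 (Scn3a, edgeR adjusted p = 0.0403). Scn7a was then at 2.47 in KA (edgeR adjusted p = 0.0896). In these fits 17 of 13196 genes were called higher in KA and 382 of 12965 in KI. Without KI sham 3 and KI sham 4, 4 subunit genes were called higher in KI, where 1956 of 13381 genes were. Between the shams 1 was then called higher, where 322 of 13381 genes were. DESeq2 called 4 higher in KI, with 11.7% of all genes. Limma-voom called 6 higher in KI, with 27.1% of all genes. In the difference between the changes of the models it called 1 higher and 6 lower, with 2232 and 2538 of 13338 genes. Between the shams it called 1 higher, with 2.35% of all genes. Leaving out 1 library at a time, subunit calls were 0 to 1 in KA, 0 to 4 in KI and 0 to 2 in the difference of changes. The counts over all genes for these fits are given below.

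Over all genes, 23 were called in KA, 1332 in KI, 507 in the difference of changes and 1 between the shams. In KA the count was 69 without KI sham 3 and KI sham 4, 205 with the ribosomal protein covariate, 725 with limma-voom and 254 with DESeq2, and 9 to 110 leaving out 1 library. In KI it was 759 with each model alone, 3740 without KI sham 3 and KI sham 4, 17 without the 3 libraries high in ribosomal RNA-like counts, 105 with the covariate, 7355 with limma-voom, 2965 with DESeq2, and 9 to 4297 leaving out 1 library. For the difference of changes it was 1025 with the covariate, 4770 with limma-voom, 1117 with DESeq2 and 56 to 897 leaving out 1 library. Between the shams it was 625 without KI sham 3 and KI sham 4, 0 without the 3 ribosomal RNA-rich libraries, 6 with the covariate, 411 with limma-voom, 11 with DESeq2 and 1 to 3 leaving out 1 library. The causes of these shifts were not tested.

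Deviations from the group means showed no positive correlation in same-numbered libraries beyond 0.01 (range −0.17 to 0.01). This cannot exclude that equal replicate numbers mark something shared. With the replicate block, 0 subunit genes were called in KA, 0 in KI, 1 in the difference of changes and 0 between the shams, and 7, 189, 173 and 0 genes overall. Scn7a was then at 2.47 in KA (edgeR adjusted p = 0.0930). Signs turned under the replicate block for Scn1a (0.21), Scn2a (0.20), Scn3a (0.082), Scn8a (0.0019), Scn2b (0.026) and Scn3b (0.029) in KA, and for Scn2a (−0.20) and Scn4b (−0.070) between the shams.

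None of the other values that changed sign had been called. With limma-voom Scn1a (0.0079), Scn2a (0.045) and Scn3a (0.0074) in KA, Scn4b in KI (0.35) and Scn3b between the shams (0.30) turned. Without KI sham 3 and KI sham 4, Scn7a turned in KI (0.13) and between the shams (0.43). With the covariate, Scn4b in the difference of changes (0.033) and Scn2a between the shams (−0.29) turned. Leaving out 1 library, ranges crossing 0 were −0.27 to 0.13 for Scn1a, −0.23 to 0.078 for Scn2a, −0.26 to 0.039 for Scn3a and −0.24 to 0.015 for Scn3b in KA. They were −0.27 to 0.11 for Scn4b in KI, and −0.12 to 0.30 for Scn2a, −0.22 to 0.14 for Scn3b and −0.075 to 0.30 for Scn4b between the shams. Ratio differences crossing 0 in KA were −0.15 to 0.053 for Scn1a to Scn2a, −0.095 to 0.0091 for Scn3a to Scn2a and −0.41 to 0.11 for Scn4b to Scn2b. In KI they were −0.24 to 0.17 for Scn1a to Scn2a, −0.17 to 0.26 for Scn3a to Scn2a and −0.43 to 0.23 for Scn3b to Scn2b.

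With 3 to 7 libraries a group, differences near the SE of 0.3 to 0.5 (log2) were not detectable. Differences well above the SE also went uncalled, such as those of Scn8a and Scn3a in KI. A gene that was not called is therefore not shown to be unchanged.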
